A study of Rattus norvegicus with 10 samples.

Results

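Mitochondrial ribosomal proteins are encoded in the nucleus, imported into mitochondria and assembled there with ribosomal RNAs into the ribosome that translates the mRNAs of mitochondrial DNA. Their genes were taken as the rows whose symbol begins with Mrpl or Mrps and then a digit, which gave 61 of the 10184 rows of the expression table. Of these, 39 carried large subunit (Mrpl) symbols and 22 small subunit (Mrps) symbols. Messenger RNA was profiled in RCS cells, a line from a rat chondrosarcoma with cartilage-like matrix, by a commercial digital mRNA sequencing service. There were 5 libraries of ARSL KO cells, in which the gene of the sulfatase enzyme arylsulfatase L was knocked out, and 5 libraries of WT cells of the same line. All were collected 48 h after seeding and, per the labels, were untreated. The labels call the libraries biological replicates but state neither whether the KO cells were 1 clone nor whether cultures were separate, so the p-values measure the spread between these libraries, which may be technical, and an effect of the knockout cannot be told apart from other differences between the cell populations. Neither Arsl nor Arse was among the symbols, so the knockout was not checked against its target.

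The mitochondrial ribosome makes the core membrane subunits of the respiratory chain and of the ATP synthase. Its small subunit binds the mRNA and holds the decoding centre, and its large subunit joins amino acids and sends the new chain out through a tunnel that opens at the inner membrane. Many of its proteins have bacterial counterparts, and others occur only in mitochondria. In structures of the mammalian mitochondrial ribosome the products of Mrps18a and Mrps30 lie in the large subunit in spite of their names.

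The libraries held 2065594 to 2591819 recovered reads over the listed genes, and the mean was 2260000 in KO and 2327000 in WT (n = 5 each; two-sided p = 0.563 by an exact permutation test, adjusted 0.563 over 2 measures). Large subunit rows took 0.313 to 0.395% of the reads in KO and 0.268 to 0.390% in WT, and small subunit rows took 0.194 to 0.222% in KO and 0.184 to 0.231% in WT. WT 3 and WT 4 stood apart from the other libraries. They scored 28 and 26.8 on the first principal component, which held 51.1% of the variance, with KO 4 at 7.91 and the remaining 7 libraries from -15 to -2.96. Values without these 3 libraries are given beside the differences that they turn or move by over 1.5 times. They compare KO 1, 2, 3 and 5 with WT 1, 2 and 5. The 3 libraries were picked from these same data, so calls, p-values, medians and counts without them are a description. Of 11 chondrocyte markers 9 were in the table, Col2a1 and Acan among them, with summed normalised reads of 34170 to 45300 in KO and 35660 to 58360 in WT. Sox9 and Snorc were not analysed here. Of the fibroblast, macrophage and endothelial markers 2 of 7, 2 of 6 and 1 of 5 were in the table, with sums of at most 41 in KO and 49.2 in WT.

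RefSeq promoter windows, 300 bases from 250 before to 50 after the gene start on build GRCr8, were at hand for 50 of the 61 members, matched by symbol. They were searched on both strands for 4 motifs linked in mammals to genes of mitochondrial function or growth: the palindromic motif of the factor NRF1, CCGGAAG of ETS factors such as GABPA, AAGATGGC of YY1 and the E-box CACGTG bound by MYC. None of these motifs contains another. AAGATGGC occurred in 12 of the 50 members (24%), against 6.97% of 6484 tested genes with a window and 3.62% of all 27457 genes with one. CCGGAAG occurred in 15 members (30%), against 21.3% and 9.63%. The NRF1 motif occurred in 7 members (14%), against 12.5% and 4.82%, and CACGTG in 3 (6%), against 10.8% and 7.08%. Members' windows had a median GC content of 55.3%, against 61.3% in tested genes. The windows below belong to members that carry the results: Mrpl42 and Mrpl12, among the lowest in WT 3 and WT 4; Mrps18b, which holds all 4 motifs; Mrps6, which was high in those libraries; and Mrps9, the member called lower in KO cells when the 3 libraries were left out. Capitals mark the motif matches.
Mrpl42 (GRCr8, chr7:32028473-32028772, minus strand): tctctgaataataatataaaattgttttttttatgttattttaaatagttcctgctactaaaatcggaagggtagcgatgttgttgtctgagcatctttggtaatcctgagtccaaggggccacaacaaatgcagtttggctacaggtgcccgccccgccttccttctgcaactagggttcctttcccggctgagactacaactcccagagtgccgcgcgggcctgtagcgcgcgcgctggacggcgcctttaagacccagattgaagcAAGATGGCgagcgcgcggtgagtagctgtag
Mrpl12 (GRCr8, chr10:106256496-106256795, plus strand): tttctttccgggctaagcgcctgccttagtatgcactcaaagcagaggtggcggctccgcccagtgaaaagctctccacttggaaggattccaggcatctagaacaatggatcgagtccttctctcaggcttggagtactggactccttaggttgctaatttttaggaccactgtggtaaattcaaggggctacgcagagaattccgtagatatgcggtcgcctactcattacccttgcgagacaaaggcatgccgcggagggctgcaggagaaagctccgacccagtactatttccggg
Mrps18b (GRCr8, chr20:2842756-2843055, plus strand): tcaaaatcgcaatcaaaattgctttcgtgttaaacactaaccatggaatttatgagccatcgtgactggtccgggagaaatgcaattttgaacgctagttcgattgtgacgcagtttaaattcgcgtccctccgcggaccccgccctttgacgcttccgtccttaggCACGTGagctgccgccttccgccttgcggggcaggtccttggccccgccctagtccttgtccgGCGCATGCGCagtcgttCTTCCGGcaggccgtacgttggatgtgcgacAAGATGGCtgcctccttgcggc
Mrps6 (GRCr8, chr11:44778417-44778716, plus strand): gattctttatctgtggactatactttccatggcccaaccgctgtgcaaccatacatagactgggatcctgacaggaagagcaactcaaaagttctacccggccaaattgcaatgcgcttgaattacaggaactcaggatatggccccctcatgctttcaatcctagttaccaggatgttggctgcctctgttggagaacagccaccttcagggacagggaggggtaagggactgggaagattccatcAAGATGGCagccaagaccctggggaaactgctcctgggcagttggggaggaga
Mrps9 (GRCr8, chr9:52605428-52605727, plus strand): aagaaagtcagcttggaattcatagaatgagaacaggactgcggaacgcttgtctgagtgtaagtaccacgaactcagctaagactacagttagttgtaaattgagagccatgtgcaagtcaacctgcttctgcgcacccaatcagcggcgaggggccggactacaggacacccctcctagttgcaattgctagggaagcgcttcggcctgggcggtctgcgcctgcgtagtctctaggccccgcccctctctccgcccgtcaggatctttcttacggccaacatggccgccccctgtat
In Mrps6 the AAGATGGC match began 3 bases before the gene start and in Mrpl42 19 bases after it. The windows of Mrpl12 and Mrps9 held none of these letters, which says nothing about the factors themselves. A match is a description of the sequence, not a site shown to be bound.

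The comparison of KO with WT asks whether these mRNAs differ between the KO and WT cell populations. Differences are KO minus WT on the deposited log2-like scale, on which low-count genes appear to differ by less than their fold change. The test covered genes averaging 1 or more above the value that stands for a count of 0. Of the 61 members, 58 passed this filter, 36 of the large and 22 of the small subunit. None of the 58 passed the limma test at an adjusted p under 0.05 (0 of 36 and 0 of 22), where 1.14% of all 8431 tested genes were called, 0.261% higher and 0.878% lower in KO. At an unadjusted p under 0.05 there were 1 of 36 large subunit members (2.78%) and 5 of 22 small subunit members (22.7%), 6 in all (10.3%), against 13.5% of all tested genes. Limma-voom on recovered reads also called 0 members, with 6 at an unadjusted p under 0.05, where it called 1.07% of all tested genes and 13.3% had an unadjusted p under 0.05. In both fits these were Mrps35 and Mrpl51, higher in KO, and Mrps9, Mrps6, Mrps23 and Mrps33, lower in KO. In the fit on deposited values these were 3.45% and 6.9% of members, against 6.16% higher and 7.32% lower over all tested genes. The median difference was 0.07 over the large subunit and 0.07 over the small subunit, against 0.01 over all tested genes. Members above 0 numbered 22 of 36 and 13 of 22, 60.3% of members against 52.1% of all tested genes.

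The 95% interval lay wholly within 0.5 on either side of 0 for 45 of 58 members (77.6%), against 75.7% of all tested genes, about the same share. Mrpl3, a core protein near the catalytic centre, had the narrowest interval of the tested members, -0.18 to 0.16, around a difference of -0.01 that was 0.0094 without the 3 libraries. It had 208, 212, 205, 195 and 212 normalised reads in KO 1 to 5, against 216, 194.5, 218, 201 and 212.5 in WT 1 to 5. The widest intervals belonged to members with a wide spread among libraries, such as Mrps28, with -0.25 to 0.70.

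**Figure D1:**
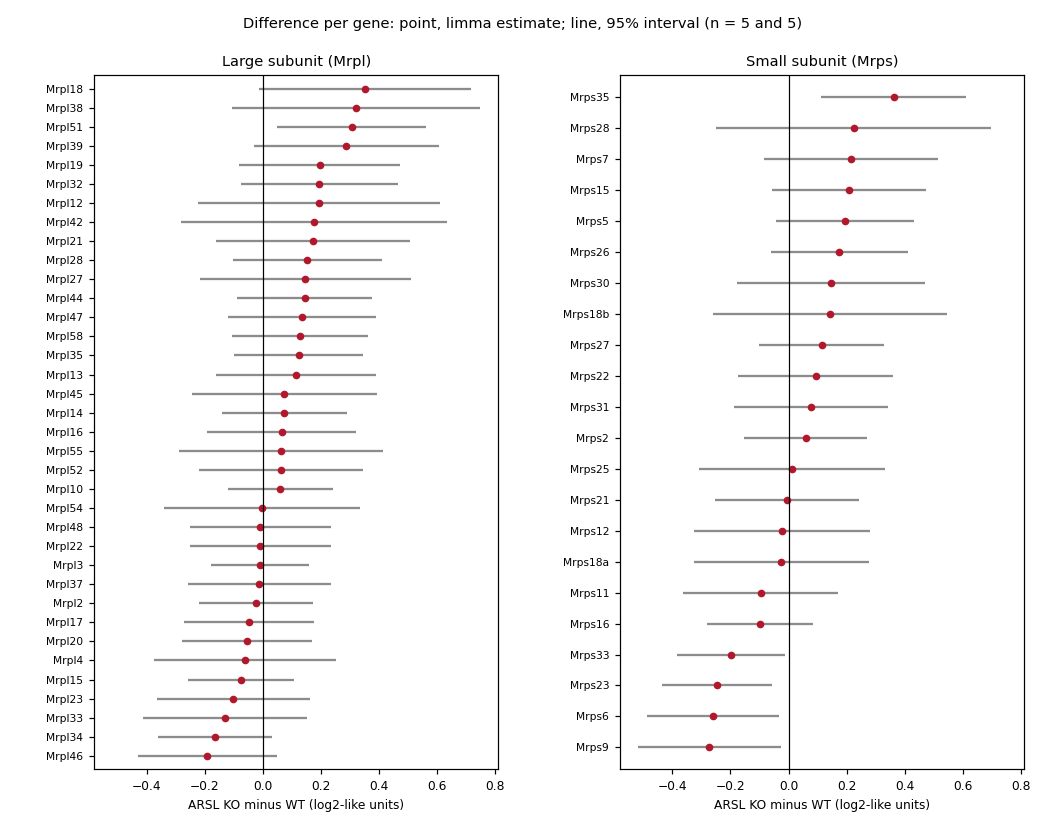
KO minus WT difference of each tested member on the log2-like scale (horizontal axis), large subunit left and small subunit right, with points for the limma estimate and lines for its 95% interval. Estimates run from -0.27 (Mrps9) to 0.36 (Mrps35), and none passed the adjusted test.

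In the small subunit, Mrps35, a protein found only in mitochondrial ribosomes, had the largest difference of all members. It had 329.6, 325, 318, 271 and 309 normalised reads in KO 1 to 5, against 261, 267, 226.5, 163.5 and 259 in WT 1 to 5. Every KO library lay above every WT library, which held for 1 of 58 members, against 1.86% of all tested genes. No member had every KO library below every WT library, against 2.4%, so 1.72% of members did not overlap in either direction, against 4.26%. The difference was 0.36 (SE 0.12; limma adjusted p = 0.175, 0.0969 to 0.336 over the alternative settings), 1.32-fold in normalised reads, and 0.25 without the 3 libraries. Mrps28 had the next largest estimate but the least precise one. It had 118, 111, 126.5, 57.6 and 129 normalised reads in KO 1 to 5, against 112, 138, 48.1, 45.9 and 112 in WT 1 to 5. KO 4, WT 3 and WT 4 were low and the other 7 libraries overlapped. Its difference was 0.22 (SE 0.22, limma adjusted p = 0.679), and 0.0043 without the 3 libraries. Mrps7 and Mrps15, core proteins with bacterial counterparts, differed by 0.22 and 0.21 (SE 0.14 and 0.12), and by 0.02 and 0.08 without the 3 libraries. Mrps5, also a core protein, had 369 ± 37.2 normalised reads in KO and 319.5 ± 50.9 in WT (SD, n = 5 each; difference 0.19, SE 0.11, limma adjusted p = 0.474), and its difference was 0.09 without the 3 libraries.

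Mrps9, a core protein of the small subunit head, had the lowest estimate. It had 231, 231, 289.9, 228 and 291.5 normalised reads in KO 1 to 5, against 341, 358, 264, 261 and 359 in WT 1 to 5. WT 1, 2 and 5 lay above every KO library, while WT 3 and WT 4 lay within the KO range. The difference was -0.27 (SE 0.11, limma adjusted p = 0.312). Without WT 3, WT 4 and KO 4 it was -0.39 (SE 0.10), the limma adjusted p was 0.0219, and Mrps9 was then the 1 member called, against 3.56% of all tested genes. Those libraries were picked from the same data, and leaving out WT 3 and WT 4 took away the overlap. The call is therefore a description and no support for a difference. Mrps23, found only in mitochondrial ribosomes, had 255.5, 253, 282.5, 311 and 265 normalised reads in KO 1 to 5, against 314, 308, 337, 328 and 370.0 in WT 1 to 5. Its KO and WT values overlapped only through KO 4 and WT 2, and the difference was -0.25 (SE 0.09, limma adjusted p = 0.226), with -0.28 without the 3 libraries (adjusted p = 0.096). Mrps33 differed by -0.20 (SE 0.09, limma adjusted p = 0.329).

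Mrps6 had 893, 837, 854, 1026 and 847 normalised reads in KO 1 to 5, against 923, 958, 1218, 1259 and 1043 in WT 1 to 5. KO 4 was the highest KO library, and WT 3 and WT 4 the highest of all. The difference was -0.26 (SE 0.11, limma adjusted p = 0.291), and -0.18 without the 3 libraries. In humans MRPS6 shares its locus with SLC5A3, a myo-inositol transporter gene, and the sources used here do not state whether the authors counted by strand, so its reads may not all be of the ribosomal protein.

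**Figure D2:**
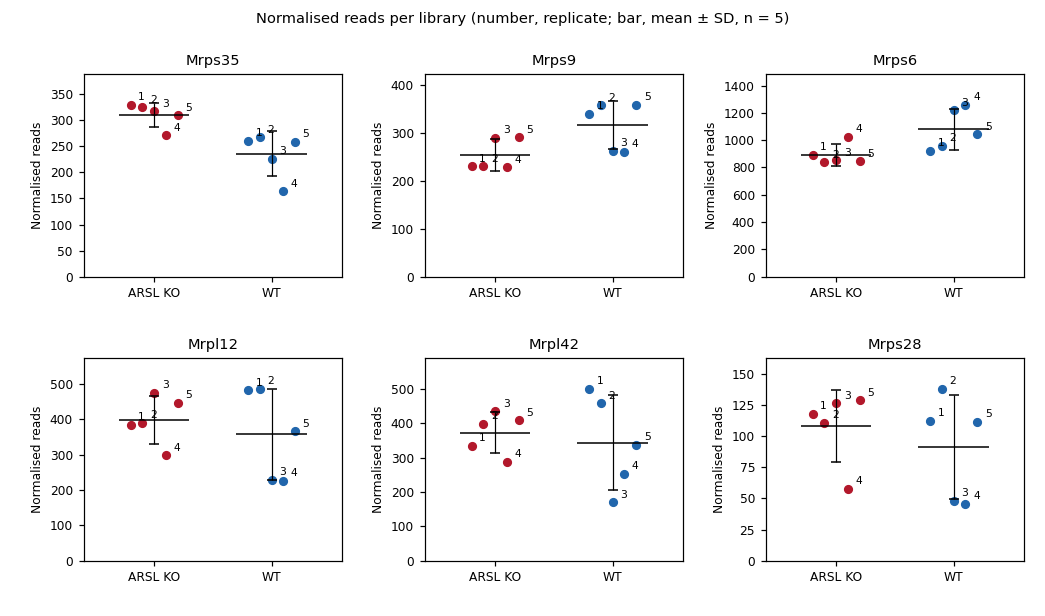
Normalised reads per library (vertical axis, from 0) for 6 members, ARSL KO left and WT right; points carry the replicate number, and bars give mean ± SD (n = 5). Mrps35 was higher in every KO library than in any WT library, while WT 3 and WT 4 were the lowest libraries of Mrpl12, Mrpl42 and Mrps28 and the highest of Mrps6.

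In the large subunit, Mrpl18, Mrpl38, Mrpl51 and Mrpl39 had the largest positive estimates. Mrpl18, a protein of the central protuberance, had 421, 433, 527, 337 and 451 normalised reads in KO 1 to 5, against 447, 427, 226.5, 240.0 and 359 in WT 1 to 5. WT 3 and WT 4 lay below every KO library and the other WT libraries within the KO range, and the difference was 0.35 (SE 0.17, limma adjusted p = 0.39), and 0.14 without the 3 libraries. Mrpl38, also of the central protuberance, had 67.6, 73.9, 71.1, 53.7 and 104 normalised reads in KO 1 to 5, against 74.1, 74.5, 23, 29.6 and 78.2 in WT 1 to 5. Its difference was 0.32 with all libraries (SE 0.20, limma adjusted p = 0.507) and 0.03 without the 3 libraries. Mrpl51 had 250.1, 275, 312, 227 and 282 normalised reads in KO 1 to 5, against 243, 246, 163, 175 and 231.5 in WT 1 to 5. Its difference of 0.31 (SE 0.12, limma adjusted p = 0.266) was 0.19 without the 3 libraries. Mrpl39, whose product resembles a threonyl-tRNA synthetase, differed by 0.29 (SE 0.15), and by 0.20 without them.

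Mrpl46, Mrpl34, Mrpl33 and Mrpl23 had the largest negative estimates of the large subunit. Mrpl46, of the central protuberance, averaged 26.2 ± 5.19 normalised reads in KO and 34.1 ± 7.7 in WT (SD, n = 5 each), a difference of -0.19 (SE 0.11, limma adjusted p = 0.486), and -0.30 without the 3 libraries. Mrpl34 differed by -0.16 (SE 0.09). Mrpl33 had 132, 142, 142, 134 and 151 normalised reads in KO 1 to 5, against 205, 179, 133.5, 104 and 182 in WT 1 to 5. WT 1, 2 and 5 lay above all KO libraries, and the difference of -0.13 (SE 0.13) was -0.33 without the 3 libraries (limma adjusted p = 0.0624). Mrpl23, at the exit of the tunnel, differed by -0.10 (SE 0.12). Mrpl27, a protein next to the catalytic centre, and Mrpl13 gave the most reads of the large subunit. Mrpl27 averaged 595 ± 93.6 normalised reads in KO and 546 ± 153 in WT, and Mrpl13 averaged 528 ± 30.3 in KO and 493 ± 105 in WT (SD, n = 5 each), with differences of 0.15 (SE 0.17) and 0.11 (SE 0.13). Without the 3 libraries these turned to -0.06 and -0.08.

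Without WT 3, WT 4 and KO 4, the members' balance turned to the other side of 0. The median difference was then -0.06 over the large subunit and -0.04 over the small subunit, against 0.01 over all tested genes, and 23 of 58 members lay above 0 (39.7%), against 51.6% of all tested genes. KO values lay wholly below WT values for 11 members (19%), against 7.79% of tested genes, and wholly above for Mrps35 and Mrpl51, 3.45% against 6.8%. The 11 were Mrps6, Mrps9, Mrps12, Mrps18a, Mrps23, Mrps25, Mrpl4, Mrpl33, Mrpl34, Mrpl46 and Mrpl54. WT 3 and WT 4 both lay below the other WT libraries for 70.7% of members, against 29% of all tested genes. Leaving them out therefore raised the WT values of members more often than those of other genes. The turn of the medians and these counts are a description and no support for a difference. Leaving out WT 3 alone brought the large subunit median to -0.0024 and that of the small subunit to 0.01.

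Mrpl1, Mrpl40 and Mrpl49 did not pass the filter on low values. Mrpl1 had 4.48 to 9.23 normalised reads in KO and 0.968 to 10.5 in WT. Mrpl40 had 3.9 to 7.18 in KO and 3.17 to 14.8 in WT, and Mrpl49 had 0.923 to 4.48 in KO and 0 to 8.46 in WT. At this depth differences in these 3 genes were not detectable. Among tested members the mean over libraries ran from 14.1 normalised reads, in Mrps31, to 986, in Mrps6. For 18 members the RefSeq gene table names pseudogene copies, Mrpl42, Mrps18b, Mrps25 and Mrpl46 among them. The sources used here do not state how reads shared with such copies were counted, so these values are uncertain.

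Libraries WT 3 and WT 4 were set against WT 1, 2 and 5 because earlier results of these data had set them apart. In such bulk libraries fewer cells of a kind and less RNA per cell cannot be told apart. The labels do not separate them, and the values below are a description without a test. Most mitochondrial ribosomal protein mRNAs were lower in WT 3 and WT 4. The median difference, WT 3 and WT 4 minus the other WT libraries, was -0.32 over the large subunit and -0.35 over the small subunit, against -0.01 over all tested genes. It was below 0 for 32 of 36 and 18 of 22 members, 86.2% in all, against 50.6% of all tested genes. Both libraries lay below the other WT libraries for 26 of 36 and 15 of 22 members (70.7% in all), against 29% of all tested genes, and above them for 2 members, Mrpl2 and Mrps6 (3.45%), against 27.2%. A difference of -0.5 or lower was seen in 19 members (32.8%), against 9.58%, and of 0.5 or higher in 0, against 8.96%.

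**Figure D3:**
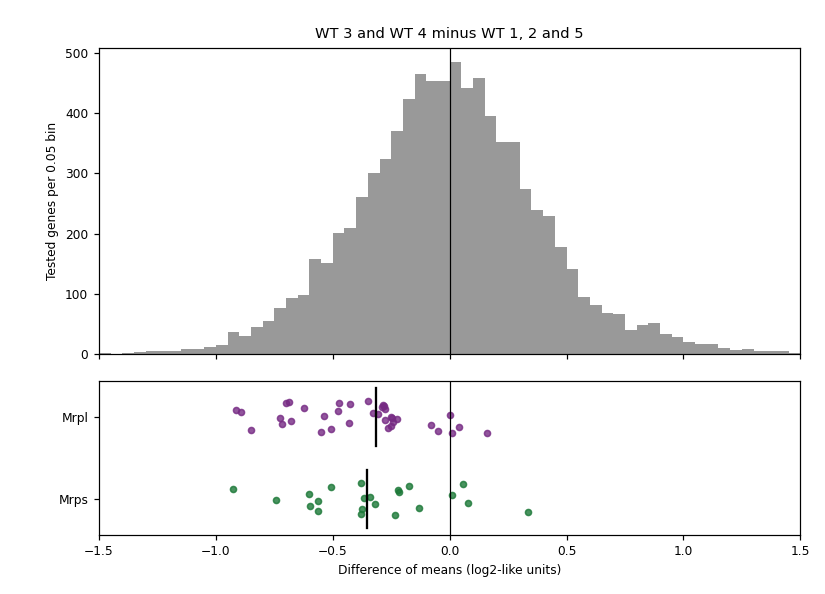
Difference of WT 3 and WT 4 minus WT 1, 2 and 5 on the log2-like scale (horizontal axis). The histogram counts all 8431 tested genes in bins of 0.05, with 15 genes beyond the axis, and the lower panel shows each tested Mrpl and Mrps gene with a black line at the median, -0.32 and -0.35.

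Mrpl42, Mrpl38 and Mrpl12 had the lowest large subunit differences in WT 3 and WT 4. Mrpl42 had 169.6 and 253 normalised reads in WT 3 and WT 4, against 501, 459 and 338 in WT 1, 2 and 5. The mean of WT 3 and WT 4 was 0.489 of the mean of the others. For Mrpl38 this ratio was 0.348. Mrpl12, whose product forms the stalk that receives translation factors, had 229 and 226 in WT 3 and WT 4, against 483, 487 and 366 in WT 1, 2 and 5, a ratio of 0.51. In KO 1 to 5 Mrpl12 had 385, 391, 474.5, 299 and 447.5 normalised reads, so KO 4 lay between WT 3 and WT 5 and the other KO libraries within the range of WT 1, 2 and 5. In the small subunit the lowest differences were those of Mrps28, Mrps18b and Mrps25, at -0.93, -0.74 and -0.60.

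Other members were about as high, or higher, in WT 3 and WT 4. Mrpl3, Mrpl15 and Mrpl2, core proteins of the large subunit, had ratios of 1.01, 1.03 and 1.14, and Mrps16 and Mrps33 of 1.07 and 1.05. Mrps6 had the highest ratio of the family, 1.27. The Mrps18 paralogs Mrps18a and Mrps18b had similar ratios, 0.581 and 0.523, and Mrps30 had 0.618, although the products of Mrps18a and Mrps30 sit in the large subunit and that of Mrps18b in the small one. Members that hold AAGATGGC, both Mrpl42 and Mrps6 among them, had a median difference of -0.33 over 11 genes, against -0.28 over 36 without it.

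**Figure D4:**
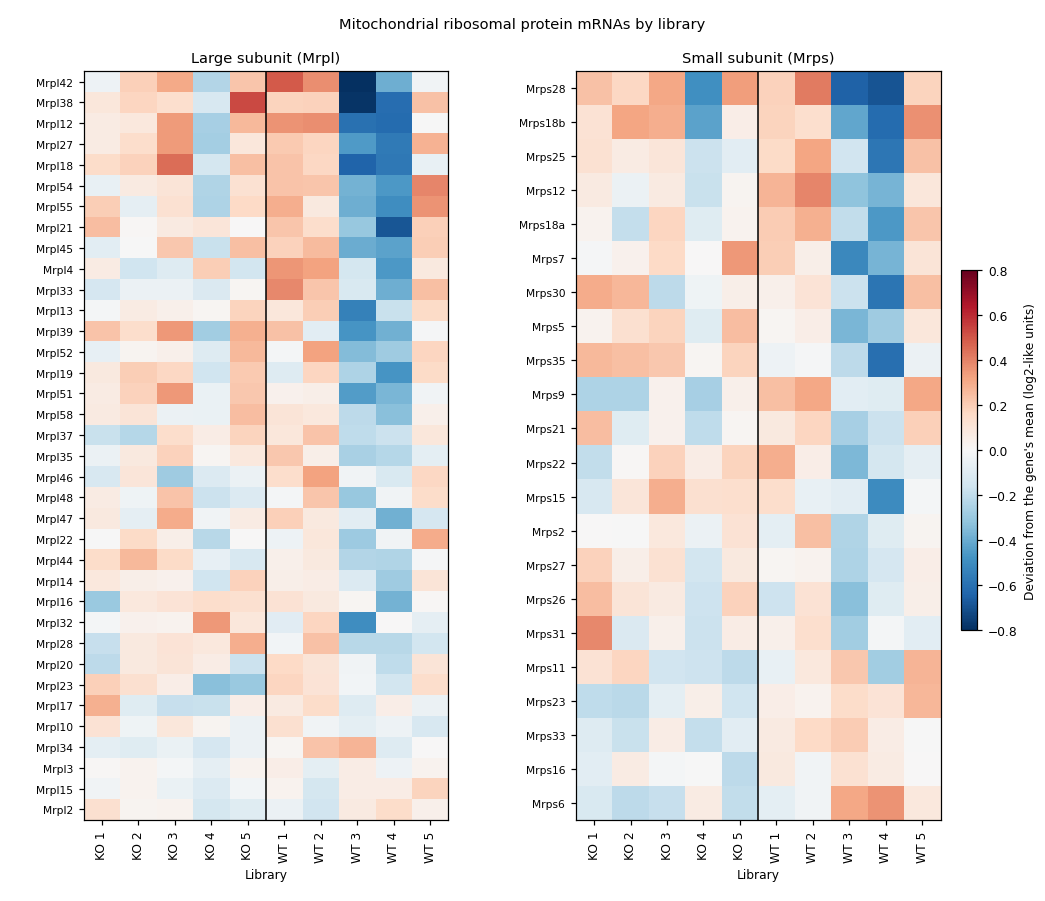
Deviation of each tested member from its own mean over the 10 libraries, on the log2-like scale with colours capped at 0.8 on either side; KO columns left and WT columns right, genes ordered from the lowest to the highest difference of WT 3 and WT 4 minus the other WT libraries. WT 3 and WT 4 are blue over most rows, KO 4 is paler blue, and Mrps6 runs the other way.

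KO 4 had the lowest median of the KO libraries in both subunits. Relative to the mean of WT 1, 2 and 5, the median deviation of large subunit members was -0.08, -0.04, -0.01, -0.22 and 0.01 in KO 1 to 5, against 0.01, 0.02, -0.37, -0.37 and -0.04 in WT 1 to 5. For small subunit members it was -0.11, -0.08, -0.0024, -0.17 and -0.11 in KO 1 to 5, against -0.04, 0.01, -0.32, -0.36 and -0.01 in WT 1 to 5. KO 4 was the lowest KO library for 34 of 58 members (58.6%), against 27.2% of all tested genes. The median coefficient of variation over members of the large subunit was 13.8% in KO and 21.9% in WT, and 8.92% over WT 1, 2 and 5 alone. Counting error by itself, computed from the mean reads in KO only, would give 7.18%. For the small subunit the median coefficient of variation was 13.1% in KO and 20.2% in WT, and 8.06% over WT 1, 2 and 5. Counting error from the KO reads would give 7.35%.

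Other measures were set beside these libraries, and their part in the results was not tested. Chondrocyte markers summed to 58320 and 58360 normalised reads in WT 3 and WT 4, against 35660, 36060 and 37790 in WT 1, 2 and 5, with all 9 markers higher in both libraries. KO 4 was the highest KO library for this sum, with 45300. Mitochondrially encoded genes with an Mt- symbol, whose mRNAs this ribosome translates, took 4.64, 4.83, 3.67, 4.945 and 5.03% of reads in KO 1 to 5, against 6.26, 6.36, 4.59, 4.47 and 6.41% in WT 1 to 5. That share averaged 4.62 ± 0.552% in KO and 5.62 ± 0.995% in WT (SD, n = 5 each; two-sided p = 0.119 by an exact permutation test, adjusted 0.238 over 2 measures). WT 3 and WT 4 were the lowest WT libraries for this share, whereas KO 4 was not low among the KO libraries. Only WT 3 and WT 4 lay within the KO range, so leaving them out removed the overlap by itself. Without WT 3, WT 4 and KO 4 the shares were 3.67 to 5.03% in KO and 6.26 to 6.41% in WT. Of 12 tested Mt- genes, limma called 0 with all libraries, against 1.14% of all tested genes. Their median difference was -0.30, and 4 had an unadjusted p under 0.05, against 13.5% of all tested genes. Without the 3 libraries limma called 8 (median -0.52, with 0 genes above 0), against 3.56% of all tested genes. These 8 calls rest on the same choice of libraries and are a description. The 65 tested cytosolic ribosomal protein genes had a median difference of -0.000613 between WT 3 and WT 4 and the other WT libraries. Both libraries lay below the others for 16 of them and above for 17, against 29% and 27.2% of all tested genes. For the 12 tested Mt- genes this median was -0.47, with 10 below and 1 above in both libraries.

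The proteins of the mitochondrial ribosome that carry other symbols are given beside them. The 4 tested here were Dap3, Ptcd3, Chchd1 and Gadd45gip1. Between KO and WT 0 of them were called, against 1.14% of all tested genes, and 0 had an unadjusted p under 0.05, against 13.5%. Their median difference was 0.11 (-0.02 without the 3 libraries). Dap3, a small subunit GTP-binding protein, had the smallest p (difference 0.16, SE 0.10, limma adjusted p = 0.497), with 0.08 without the 3 libraries. All 4 were lower in both WT 3 and WT 4 than in WT 1, 2 and 5, which held for 29% of all tested genes. The ratio of the means of WT 3 and WT 4 to those of WT 1, 2 and 5 was 0.851 for Dap3, 0.728 for Ptcd3, 0.707 for Chchd1 and 0.413 for Gadd45gip1. Rows spelled mrpl11, mrpl24 and mrpl9 fell outside the rule. They differed by 0.02, 0.02 and -0.19 between KO and WT (-0.08, -0.10 and -0.20 without the 3 libraries), and by -0.29, -0.41 and -0.17 between WT 3 and WT 4 and the other WT libraries.

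Genes that build and run the mitochondrial ribosome were not called between KO and WT either. For the counts that follow, the share of all tested genes was 1.14% called and 13.5% at an unadjusted p under 0.05. Of 23 tested assembly factors 0 were called in either direction (median 0.04, and -0.03 without the 3 libraries), with 2 at an unadjusted p under 0.05. Mrm1, which methylates the large ribosomal RNA, had the smallest p, with 12.1 ± 5.12 normalised reads in KO and 24.8 ± 4.03 in WT (SD, n = 5 each). Its difference was -0.45 (SE 0.12, limma adjusted p = 0.109). The KO values of Mrm1 lay wholly below its WT values, which held for 2.4% of all tested genes. Of 12 tested translation factors 0 were called (median 0.12, and 0.05 without the 3 libraries), with 3 at an unadjusted p under 0.05. Tsfm, the exchange factor of the elongation factor Tufm, had 33.6 ± 1.96 normalised reads in KO and 21.2 ± 3.09 in WT (SD, n = 5 each). Its difference was 0.33 (SE 0.09, limma adjusted p = 0.118). The KO values of Tsfm lay wholly above its WT values, and so did those of Mrrf from the same list. That held for 1.86% of all tested genes. Of 11 mitochondrial aminoacyl-tRNA synthetases 0 were called (median -0.0045, and -0.02 without the 3 libraries), with 0 at an unadjusted p under 0.05, and Iars2 had the smallest p (difference -0.34, SE 0.23, limma adjusted p = 0.535), turning to 0.07 without the 3 libraries. It averaged 399 normalised reads in WT 3 and WT 4 and 177 in WT 1, 2 and 5, opposite to most mitochondrial ribosomal protein genes. The median of WT 3 and WT 4 minus the other WT libraries was -0.23 over assembly factors and -0.15 over translation factors. It was -0.08 over the synthetases, against -0.01 over all tested genes. Both libraries lay below the others for 14 of 23, 4 of 12 and 3 of 11, against 29% of all tested genes. In the lists that follow the median was -0.08 and -0.16, with 7 of 18 and 3 of 7 below. Of 18 genes of mitochondrial DNA transcription, replication and RNA processing 0 were called (median 0.07, and 0.04 without the 3 libraries; Pnpt1 0.21, SE 0.10, limma adjusted p = 0.413), nor were any of 7 regulators of mitochondrial biogenesis (median 0.03, and 0.04 without the 3 libraries; Esrra 0.13, SE 0.11, limma adjusted p = 0.641), and neither list held a gene at an unadjusted p under 0.05.

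For 13 members the promoter window overlapped that of another gene on the opposite strand in the RefSeq table. Mrpl46 and Mrps11 shared such a window with each other, and differed by -0.19 (SE 0.11) and -0.10 (SE 0.12) between KO and WT. Mrpl51 shared one with Ncapd2, a condensin subunit gene, and Mrpl18 with Tcp1, a chaperonin subunit gene.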

How the data were processed

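Gene expression was measured in 5 ARSL KO and 5 WT libraries of RCS cells. The authors deposited variance-stabilised, log2-like values for 10184 genes. Per the submitters' processing notes, bcl2fastq, STAR 2.7.11a, HTSeq and the rat build rn6 were used. The sources used here do not state the tool of the transformation, the gene filter or the use of strand. The lowest value, 4.42, stands for a count of 0, and undoing the transformation gave whole reads, within 0.0001 of a read, for 100% of values. Normalised reads are these reads over each library's size factor. They are not corrected for gene length, so levels were not compared between genes. Depth was 2065594 to 2591819 reads per library, and counting error was taken from the mean reads of each member in KO.

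KO was compared with WT by limma 3.58.1 in R 4.3.3, with an intensity trend, on the deposited values of 8431 genes whose mean was at least 1 above the lowest value. P-values were two-sided and adjusted over all tested genes by the Benjamini-Hochberg method, with calls under 0.05. Groups came from the sample titles. The procedure was tested on simulated data. Alternatives were other filters, scalings and variance settings, limma-voom on the recovered reads, a replicate block and leaving out libraries. The members, gene lists and tests were chosen with earlier results of these data known. Named members were those called, those whose KO and WT values did not overlap, in each subunit the 4 largest differences in each direction, the 2 with the most reads, the 3 largest in each direction between WT 3 and WT 4 and the other WT libraries, and Mrps6, Mrps18a, Mrps18b and Mrps30 for what is known of them. From each list of genes that build, run or regulate the mitochondrial ribosome or mitochondrial gene expression, the gene with the smallest p was named. The ratios of the other mitochondrial ribosome proteins were added after their values were seen. So were the medians and counts of the gene lists between WT 3 and WT 4 and the other WT libraries. Promoter windows are from the RefSeq table of GRCr8. Members with no window there and rows without a symbol were not searched for.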

Additional observations from a re-analysis of the deposited data

Results flagged for a closer look

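In ARSL KO, 1 library stood far from the other 4 in 2 of 66 groups of values examined, where chance alone marks about 1 in 20 groups. For Mrps28 the KO 4 value was 6.58 on the log2-like scale, against 7.24 to 7.40 in the other KO libraries, a gap of 0.795 of the group's range. For the share of reads from genes with an Mt- symbol, KO 3 had 3.67%, against 4.64 to 5.03% in the other KO libraries, a gap of 0.713 of the range.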

How the results depend on the processing

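Of all tested genes 96 were called, 60 with a stricter filter, 300 without WT 3, WT 4 and KO 4, and 33 to 101 when 1 library was left out at a time (62 without WT 3; 53, 37, 33 and 37 without KO 1, 2, 3 and 5). Of the small subunit, 1 member was called without the 3 libraries, Mrps9 at -0.39; no other alternative called a member. Among the named members, leaving out those 3 libraries turned the sign for Mrpl12 (-0.0567), Mrpl13 (-0.0786), Mrpl27 (-0.0585), Mrpl42 (-0.109), Mrps18b (-0.0303), Mrps25 (-0.184), Mrps30 (-0.0318), Mrpl2 (0.0724) and Mrpl3 (0.00942), and quantile normalization turned Mrps25 (-0.0118). With 1 library left out, values ran from -0.0076 to 0.18 for Mrpl13, -0.0663 to 0.0090 for Mrpl2, -0.0314 to 0.0058 for Mrpl3, -0.0218 to 0.32 for Mrpl42, -0.14 to 0.044 for Mrps18a and -0.13 to 0.0922 for Mrps25. The KO minus WT medians ran from -0.0024 to 0.12 (large subunit) and 0.01 to 0.12 (small subunit) with 1 library left out, and were -0.06 and -0.04 without the 3 libraries. The median of WT 3 and WT 4 minus the other WT libraries was -0.35 with a stricter filter, -0.45 with limma-voom and -0.37 to -0.30 with 1 library left out (large subunit), and -0.42 with limma-voom and -0.36 to -0.32 (small subunit). Adding the lower-case rows, chosen after seeing the data, kept the sign of both large subunit medians. The causes were not tested. Whether replicate numbers pair the samples was not settled. The correlations of same-numbered libraries ran from -0.293 to 0.587. The same number was the best match for replicates 2 and 4, and not for 1, 3 and 5. The replicate block gave 136 calls, 0 of them members. Depth limits Mrpl1, Mrpl40 and Mrpl49.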
